A study of Mus musculus with 24 samples.

Results

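The miR-99, miR-100 and miR-125 family is a group of miRNAs, short RNAs that lower the output of messenger RNAs they pair with. It was followed here through the cycle of the mouse mammary gland by its 5 main products, mmu-miR-99a-5p, mmu-miR-99b-5p, mmu-miR-100-5p, mmu-miR-125a-5p and mmu-miR-125b-5p. These members were taken by name, whatever their values, from the 1009 miRNAs listed for each library, and all 5 were found. Small RNA came from frozen, powdered abdominal and inguinal mammary glands of 24 females of the inbred C57BL/6 strain (written C57/BL6 in the labels), each mouse giving 1 library. Their 4 stages, of 6 mice each, are named here W10 (10-week-old adults), P18 (pregnancy, day 18), Lac7 (lactation, day 7) and Inv3 (involution, day 3). Involution is the regression of the gland after suckling ends. The labels name no transgene and no treatment for any mouse, and the age is given only for the adults. These days are those of the library labels and the paper, while the design text of the series gives lactation day 3, involution day 7 and the inguinal gland only. Since whole tissue was ground, fewer cells of a type and less RNA per cell cannot be told apart in any level below.

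A miRNA finds its targets mainly through its seed, the bases from the 2nd to the 8th, so members that share a seed can pair with the same sites. In mammals the family is encoded in clusters that each hold a miR-99 or miR-100 gene, a let-7 gene and a miR-125 gene. miR-125a and miR-125b are known for lowering Lin28, a brake on let-7 maturation, and the growth factor receptors Erbb2 and Erbb3. miR-99a, miR-99b and miR-100 are known for lowering Mtor and Igf1r, which carry growth and insulin-like signals that the secretory gland uses.

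The mature sequences show why 5 names amount to 2 seeds. They are given 5′ to 3′ from RefSeq (GRCm38.p6) with the seed in capitals. The first 3 share the seed ACCCGUA and the next 3 the seed CCCUGAG. The last 2 are the other strands of the 2 precursors of miR-125b-5p, which are shown because they tell those precursors apart.
mmu-miR-99a-5p: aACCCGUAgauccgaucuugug
mmu-miR-99b-5p: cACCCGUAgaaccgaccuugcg
mmu-miR-100-5p: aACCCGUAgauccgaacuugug
mmu-miR-125a-5p: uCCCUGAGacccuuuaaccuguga
mmu-miR-125b-5p: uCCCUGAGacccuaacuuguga
mmu-miR-351-5p: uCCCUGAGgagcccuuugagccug
mmu-miR-125b-1-3p: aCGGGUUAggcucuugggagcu
mmu-miR-125b-2-3p: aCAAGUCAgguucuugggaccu

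Counted from 1 at the 5′ end, miR-99a-5p and miR-100-5p differed at 1 of 22 bases, U16A, outside the seed. How reads that fit both were assigned is not given in the sources used here. miR-99a-5p and miR-99b-5p differed at 4 bases, A1C, U11A, U16C and U21C. miR-125a-5p is 24 bases long and miR-125b-5p 22, and without gaps they were identical at 15 of 22 bases, all 7 differences lying 3′ of the seed. RefSeq held a sequence for 854 of the 1009 listed miRNAs, and among these miR-351-5p was the 1 other miRNA with a member's seed.

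The members come from 3 clusters on the plus strand of GRCm38 (GENCODE). On chromosome 16 the precursors Mir99a (77598936 to 77599000), Mirlet7c-1 and Mir125b-2 (77646273 to 77646343) lie in introns of the noncoding Mir99ahg and span 47408 bases. On chromosome 9, Mir100 (41531425 to 41531504), Mirlet7a-2 and Mir125b-1 (41581926 to 41582002) lie in introns of the noncoding 3110039I08Rik and span 50578 bases. The cluster on chromosome 17 spans only 692 bases, with Mir99b (17830188 to 17830257) and Mirlet7e in an intron of the protein-coding Spaca6 and Mir125a (17830812 to 17830879) overlapping one of its exons. miR-125b-5p is thus made from 2 clusters and its value is their sum. The let-7a-5p and let-7c-5p values likewise include precursors outside these clusters.

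The values are RPM, reads per 1000000 reads on listed miRNAs, so a level can move because other miRNAs took more or fewer of the reads. The libraries held 660346 to 1165321 such reads, with the fewest at Lac7 (660346 to 751890). The fewest reads behind any member in any library were 8, for miR-100-5p at Lac7, and no member was at 0. Together the members held 3.75% ± 0.981 of the reads at W10 (SD, n = 6) and 1.63% ± 0.372 at P18. They held 0.877% ± 0.106 at Lac7 and 2.04% ± 0.888 at Inv3. Most of this was miR-125: the miR-99 and miR-100 seed summed to 1643 RPM ± 723 at W10 and 204 RPM ± 18.6 at Lac7, against 35932 ± 9761 and 8584 ± 1042 for the miR-125 seed with miR-351-5p. Changes between stages were tested with limma on log2(RPM + 1) in 1 fit over the 24 libraries, with p-values adjusted over the 544 miRNAs tested, and a miRNA was called with an adjusted p under 0.05 and a log2 fold change of at least 1. Fitted log2 changes are on the log2(RPM + 1) scale and are somewhat smaller than those of the raw values for low miRNAs, while plain folds compare mean RPM.

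By mean RPM all 5 members were highest at W10, then Inv3, then P18, and lowest at Lac7, but neighbours in this order were not always apart. miR-125a-5p had about the same level at P18 and Lac7, and with DESeq2 size factors its mean was higher at Lac7 (6483) than at P18 (5349). miR-99b-5p, scaled in that way, had 179 at Inv3 and 172 at W10, and 100.4 at Lac7 and 98.98 at P18. From W10 to P18 all 5 were called lower, where 20% of all tested miRNAs were called lower, and in all 5 no P18 mouse reached the lowest W10 mouse, which held for 16.9% of all tested miRNAs. Their median log2 change was -1.25, against -0.32 over all miRNAs tested. From P18 to Lac7 miR-99a-5p, miR-100-5p and miR-125b-5p were called lower (22.6% of all miRNAs were), with a member median of -1.23 against -0.34. The mice of miR-99a-5p and miR-125b-5p did not overlap, as in 19.1% of all miRNAs. From Lac7 to Inv3 the same 3 members were called higher, against 16.5% of all miRNAs, with a median of 1.72 against 0.28. In 4 members, all except miR-125a-5p, every Inv3 mouse lay above every Lac7 mouse, against 13.6% of all miRNAs.

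At Lac7 against W10 all 5 members were called lower (39.7% of all miRNAs) and did not overlap (29.4% of all miRNAs), with a median of -2.84 against -0.66. At Inv3 against W10 miR-99a-5p, miR-100-5p and miR-125b-5p were called lower, against 19.5% of all miRNAs, and all 5 members overlapped. At Inv3 against P18 no member was called by limma, while 14.2% of all miRNAs were called in either direction. There 2 members, miR-99b-5p and miR-125a-5p, were higher with an adjusted p under 0.05 and a smaller change (3 had an unadjusted p under 0.05), where 10.8% of all miRNAs were higher with such a p. By edgeR and by DESeq2 3 members were, against 12.7% and 12.9% of all miRNAs. These comparisons share groups of mice and are not independent of each other.

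These counts depended on how the libraries were scaled. With DESeq2 size factors in place of RPM, the median over all tested miRNAs moved from -0.32 to -0.12 for P18 against W10 and from -0.66 to -0.31 for Lac7 against W10. All 5 members stayed lower in both comparisons with an adjusted p under 0.05, as did 22.2% and 37.9% of all miRNAs, but 3 instead of 5 still passed the fold limit in each, against 14% and 29% of all miRNAs. For Lac7 against P18 the number past both limits was 1 (miR-125b-5p) instead of 3, against 16.7% of all miRNAs. For Inv3 against W10 it was 1 (miR-99a-5p) instead of 3, against 11.6%. Over all miRNAs the calls, 41 higher and 109 lower for P18 against W10 and 57 and 216 for Lac7 against W10, became 48 and 76, and 94 and 158. For Lac7 against P18, 41 higher and 123 lower became 59 and 91, and for Inv3 against W10, 30 and 106 became 40 and 63. Without W10 mouse 3, the highest in both miR-125 members, 3 members instead of 5 were called lower for P18 against W10 (19.5% of all miRNAs) and 2 instead of 3 for Inv3 against W10 (20% of all miRNAs), miR-99b-5p and miR-125b-5p having log2 changes of -0.99 each from W10 to P18.

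**Figure D1:**
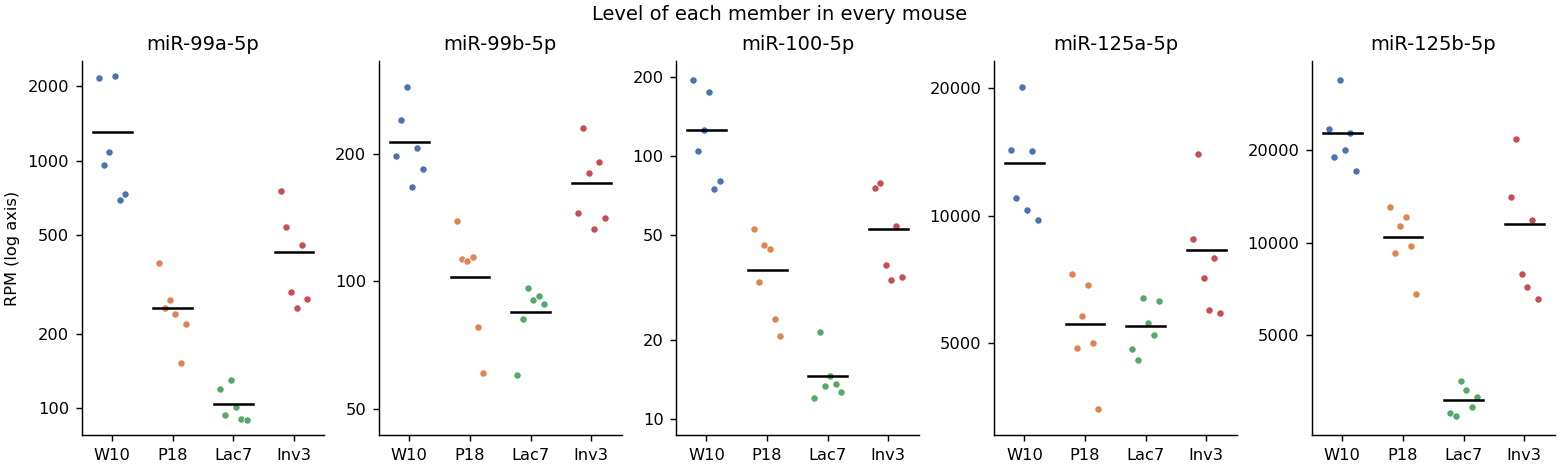
Level of each member in RPM (log axis) in each of the 24 mice, by stage, with 1 point per mouse and a bar at the mean of the 6 mice. By mean RPM the members were highest at W10 and lowest at Lac7, with P18 and Lac7 about level for miR-125a-5p, and the Lac7 mice of miR-125b-5p (2734 to 3562 RPM) lay below those of every other stage while those of miR-125a-5p (4562 to 6378 RPM) lay among the P18 mice.

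miR-99a-5p had the largest fitted change of the 5 members from W10 to P18, from Lac7 to Inv3 and between W10 and Lac7, while miR-125b-5p changed more from P18 to Lac7. At W10 its lowest, median and highest mice had 694, 1022 and 2190 RPM, at P18 152, 247 and 386 RPM, at Lac7 89.9, 97.4 and 130.5 RPM, and at Inv3 255, 375 and 752 RPM. The W10 mice fell into 2 at 2158 and 2190 RPM (mice 1 and 4) and 4 at 694 to 1086 RPM. Even the lower 4 lay above every P18 mouse, and the stages overlapped only between Inv3 and its neighbours W10 and P18. The mean was 5.12-fold lower at P18 than at W10 (log2 change -2.25, SE 0.28, limma adjusted p = 3.02e-07) and a further 2.44-fold lower at Lac7 (log2 change -1.24, SE 0.28, adjusted p = 0.000676). Over both steps the mean fell from 1303 RPM ± 690 to 104 RPM ± 17.0, or 12.5-fold. From Lac7 to Inv3 it was 4.11-fold higher (log2 change 1.93, SE 0.28, adjusted p = 2.76e-06), which left it 3.04-fold below W10 (adjusted p = 9.37e-05). The difference between Inv3 and P18 did not pass the adjusted test by limma (log2 change 0.69, 95% interval 0.11 to 1.27, adjusted p = 0.07), but did by DESeq2 (adjusted p = 0.015) and edgeR (adjusted p = 0.0244). It also did by limma with size factors (adjusted p = 0.0339), with the mouse number as a replicate block (0.0325) and without the 2 W10 mice highest in muscle markers (0.0491).

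miR-100-5p, which shares all but 1 base with miR-99a-5p, had a lower level and a like course. Its lowest, median and highest mice had 75.2, 116 and 195 RPM at W10, 20.7, 38.8 and 53.0 RPM at P18, 12.01, 13.5 and 21.4 RPM at Lac7, and 33.8, 46.4 and 79.2 RPM at Inv3. The 2 W10 mice that were highest in miR-99a-5p were also highest in miR-100-5p. P18 and W10 did not overlap, nor did Lac7 and Inv3, whereas the highest Lac7 mouse, mouse 2, lay within the P18 range. Its log2 change was -1.73 (SE 0.28, limma adjusted p = 9.71e-06) from W10 to P18, -1.23 (adjusted p = 0.000633) from P18 to Lac7 and 1.72 (adjusted p = 1.11e-05) from Lac7 to Inv3. With a pseudocount of 10 RPM the step from P18 to Lac7 was -0.89, under the fold limit. At 8 to 16 reads per library, its Lac7 values are the least precise of the family.

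miR-99b-5p, the member of the compact chromosome 17 cluster, changed less. It had 167, 202 and 287 RPM in the lowest, median and highest W10 mice, 60.9, 112 and 139 RPM at P18, 60.05, 89.5 and 96.4 RPM at Lac7 and 133, 162 and 230 RPM at Inv3. All Lac7 mice lay below all Inv3 mice, but P18 and Lac7 overlapped widely, as did Inv3 and W10. The mean was 2.08-fold lower at P18 than at W10 (log2 change -1.08, SE 0.19, limma adjusted p = 3.93e-05). A difference between P18 and Lac7 was not shown (log2 change -0.24, 95% interval -0.63 to 0.15, adjusted p = 0.325), nor was one between W10 and Inv3 (-0.33, 95% interval -0.72 to 0.06, adjusted p = 0.168), and both turned to positive values with size factors (0.06 and 0.05). The increase from Lac7 to Inv3 was 2.005-fold with an adjusted p of 0.000113 and stayed just under the fold limit in the fit (log2 change 0.98, SE 0.19).

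As a result the makeup of the miR-99 and miR-100 seed shifted. miR-99a-5p held 76.9% ± 6.75 of its reads at W10 and 64.5% ± 4.87 at P18, then 51.1% ± 6.29 in lactation and 64.1% ± 6.96 in involution (SD, n = 6). The share of miR-99b-5p rose from 15.2% ± 6.35 at W10 to 41.7% ± 5.75 at Lac7. The log2 ratio of miR-99b-5p to miR-99a-5p was 2.17 higher at Lac7 than at W10, with no overlap between the mice (two-sided exact permutation p = 0.00216, the smallest that 6 against 6 mice allow, adjusted p = 0.00623). miR-100-5p held 7.22% to 9.26% of the seed on average at all stages.

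miR-125b-5p was the most abundant member outside lactation. Its lowest, median and highest mice had 17030, 21286 and 33699 RPM at W10, 6823, 10538 and 13047 RPM at P18, 2734, 3044 and 3562 RPM at Lac7, and 6558, 9847 and 21609 RPM at Inv3. By mean level it ranked 11 among all listed miRNAs at W10 and 38 at Lac7. The Lac7 mice lay below every mouse of the other stages, and the Inv3 mice covered the whole P18 range and part of that of W10. Its mean was 2.17-fold lower at P18 than at W10 (log2 change -1.12, SE 0.22, limma adjusted p = 0.000143), then 3.37-fold lower at Lac7 (-1.73, SE 0.22, adjusted p = 2.87e-07). It was 3.73-fold higher at Inv3 than at Lac7 (1.77, SE 0.22, adjusted p = 1.88e-07). Inv3 and P18 could not be ordered (log2 change 0.04, 95% interval -0.40 to 0.49, adjusted p = 0.925). Inv3 was below W10 by RPM (-1.07, SE 0.22, adjusted p = 0.000304), but on the recovered reads the adjusted p was 0.0565 by edgeR and 0.0513 by DESeq2.

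miR-125a-5p, with the same seed, followed miR-125b-5p down in pregnancy but not in lactation. It had 9769, 12595 and 20141 RPM in the lowest, median and highest W10 mice, 3490, 5391 and 7269 RPM at P18, 4562, 5411 and 6378 RPM at Lac7 and 5898, 7539 and 13952 RPM at Inv3. The Lac7 mice all lay inside the P18 range, and the Inv3 mice overlapped each of the other stages. From W10 to P18 the mean was 2.39-fold lower (log2 change -1.25, SE 0.20, limma adjusted p = 7.62e-06). From P18 to Lac7 the log2 change was 0.01 (SE 0.20, 95% interval -0.39 to 0.42, adjusted p = 0.967), an interval that leaves out the change of miR-125b-5p over the same step. The increase from Lac7 to Inv3 was 1.51-fold, with a log2 change of 0.54 and an adjusted p of 0.0249 by limma, 0.157 with size factors, 0.112 by DESeq2 and 0.0376 by edgeR.

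The balance of the 2 miR-125 members therefore turned over in lactation. The ratio of miR-125a-5p to miR-125b-5p was 0.585 ± 0.0389 in the W10 mice (SD, n = 6, range 0.516 to 0.628) and 0.531 ± 0.0252 in the P18 mice (0.510 to 0.567). It was 1.78 ± 0.119 in the Lac7 mice (1.67 to 1.99) and 0.764 ± 0.130 in the Inv3 mice (0.626 to 0.905). It exceeded 1 in 6 of 6 Lac7 mice and in no mouse of any other stage. On the log2 scale it was 1.74 higher at Lac7 than at P18 and 1.23 lower at Inv3 than at Lac7, each without overlap (exact permutation p = 0.00216, adjusted p = 0.00623). At Inv3 the ratio had not returned to the P18 level, the log2 ratio being 0.51 higher without overlap (exact permutation p = 0.00216, adjusted p = 0.00623). Such a ratio is formed within a library, so the scaling between libraries drops out of it. Of the reads with the miR-125 seed, miR-125a-5p held 34.5% ± 1.06 at P18 and 63.8% ± 1.51 at Lac7.

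**Figure D2:**
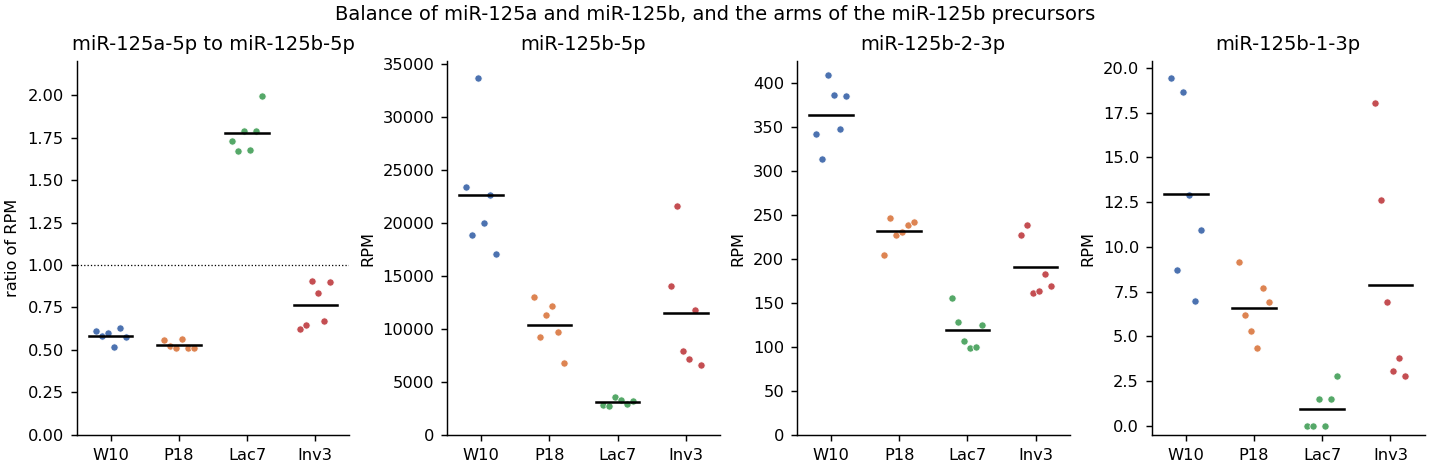
The ratio of miR-125a-5p to miR-125b-5p (left, dotted line at 1) and the RPM of miR-125b-5p and of the other arms of its precursors, miR-125b-2-3p and miR-125b-1-3p, in each mouse by stage, with bars at the means of 6 mice. The ratio lay above 1 only in the Lac7 mice (1.67 to 1.99), and both 3p arms were lowest at Lac7.

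The 3p arms separate the sources of miR-125b-5p, although an arm is usually discarded and its level is not that of the precursor. miR-125b-2-3p, from chromosome 16, was by far the more abundant. Its lowest, median and highest mice had 313, 366 and 409 RPM at W10, 205, 235 and 246 RPM at P18, 98.4, 116 and 156 RPM at Lac7, and 161, 176 and 239 RPM at Inv3. W10, P18 and Lac7 did not overlap with each other, nor did Lac7 and Inv3. Its log2 change was -0.65 (SE 0.14, limma adjusted p = 0.000304) from W10 to P18, -0.97 (adjusted p = 1.43e-06) from P18 to Lac7 and 0.67 (adjusted p = 0.000178) from Lac7 to Inv3, none of them past the fold limit.

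miR-125b-1-3p, from chromosome 9, had 76 reads over the 6 W10 mice (8 to 18 per library) and 39 over the P18 mice (4 to 9). Only 4 reads came from the Lac7 mice (0 to 2 per library) and 51 from the Inv3 mice (2 to 21). In lactation 3 libraries held none, which still allows up to 3 reads in each, so no fold is given. It made up 3.35% of the reads of both 3p arms at W10 (exact 95% binomial interval 2.65% to 4.18%, pooled over mice and covering counting error only) and 2.80% at P18 (1.998% to 3.81%). In lactation the share was 0.792% (0.216% to 2.02%) and in involution 4.19% (3.13% to 5.47%). By mouse the shares ran from 0% to 2.198% at Lac7 and from 1.98% to 5.37% at W10, so these stages overlapped. The other arms of the remaining members were rare at every stage, miR-99b-3p with 4.4 to 8.4 RPM, miR-125a-3p with 4.2 to 10.4 RPM and miR-99a-3p with 0.5 to 2.7 RPM on average. miR-100-3p had 1 read in all 24 libraries.

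The let-7 partners of the clusters, miRNAs that restrain growth and stem cell genes, did not share the course of the family. let-7c-5p rose from 96536 RPM ± 13905 at W10 to 149044 ± 14273 at P18 (SD, n = 6, log2 change 0.63, SE 0.11, limma adjusted p = 1.88e-05), then measured 115125 ± 14143 at Lac7 and 86495 ± 8608 at Inv3. From P18 to Lac7 it fell (log2 change -0.38, 95% interval -0.59 to -0.16), as did miR-99a-5p, miR-100-5p and miR-125b-5p. Over that step let-7a-5p and let-7e-5p had log2 changes of 0.07 (-0.17 to 0.30) and 0.19 (-0.05 to 0.43). let-7a-5p was 1.52-fold higher at P18 than at W10 (adjusted p = 6.30e-05), and let-7e-5p 1.33-fold higher (adjusted p = 0.00543). From Lac7 to Inv3, where the members rose, the log2 changes of let-7a-5p, let-7c-5p and let-7e-5p were -0.54, -0.41 and -0.34 (adjusted p = 0.000258, 0.00235 and 0.0182). None of these passed the fold limit. Of the 9 let-7 family miRNAs tested, 6 rose from W10 to P18 (12.1% of all miRNAs did) and 9 fell from Lac7 to Inv3 (18.9% of all miRNAs did) with an adjusted p under 0.05, and 1 passed the fold limit, at Lac7 against W10, where 10.5% of all miRNAs were called higher. With size factors, 2 were called higher for P18 against W10 and 6 for Lac7 against W10, where 8.82% and 17.3% of all miRNAs were.

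**Figure D3:**
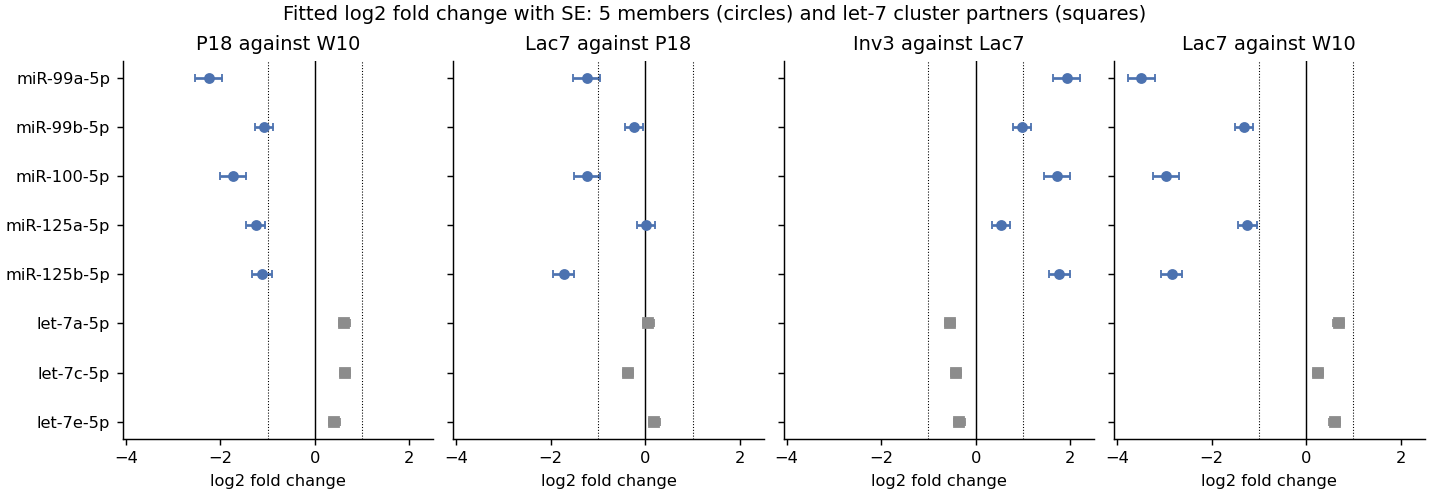
Fitted log2 fold change with its SE for the 5 members (circles) and the let-7 miRNAs of their clusters (squares) in 4 comparisons of stages, with dotted lines at the fold limit of 1. From W10 to P18 the members lay between -2.25 and -1.08 and the let-7 partners between 0.41 and 0.63.

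Within each library, every member was set against the let-7 miRNA of its own cluster. From W10 to P18 all 6 such ratios fell without overlap between the mice (exact permutation p = 0.00216 and adjusted p = 0.00623 for each). On the log2 scale, the ratio to let-7c-5p changed by -2.88 for miR-99a-5p and -1.75 for miR-125b-5p. The ratio to let-7a-5p changed by -2.35 for miR-100-5p and -1.74 for miR-125b-5p, and that to let-7e-5p by -1.49 for miR-99b-5p and -1.67 for miR-125a-5p. miR-125a-5p measured 4.22 ± 0.851 times let-7e-5p at W10 and 1.32 ± 0.222 times at P18, although their precursors lie 367 bases apart. From P18 to Lac7 the 4 ratios of the chromosome 9 and 16 clusters fell further (adjusted p = 0.00623 to 0.0138). Those of the chromosome 17 cluster did not pass the adjusted test, with log2 differences of -0.43 (adjusted p = 0.0567) and -0.18 (adjusted p = 0.257). From Lac7 to Inv3 all 6 rose, by 0.88 to 2.34 on the log2 scale (exact permutation p = 0.00216 to 0.00433, adjusted p = 0.00623 to 0.0101).

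**Figure D4:**
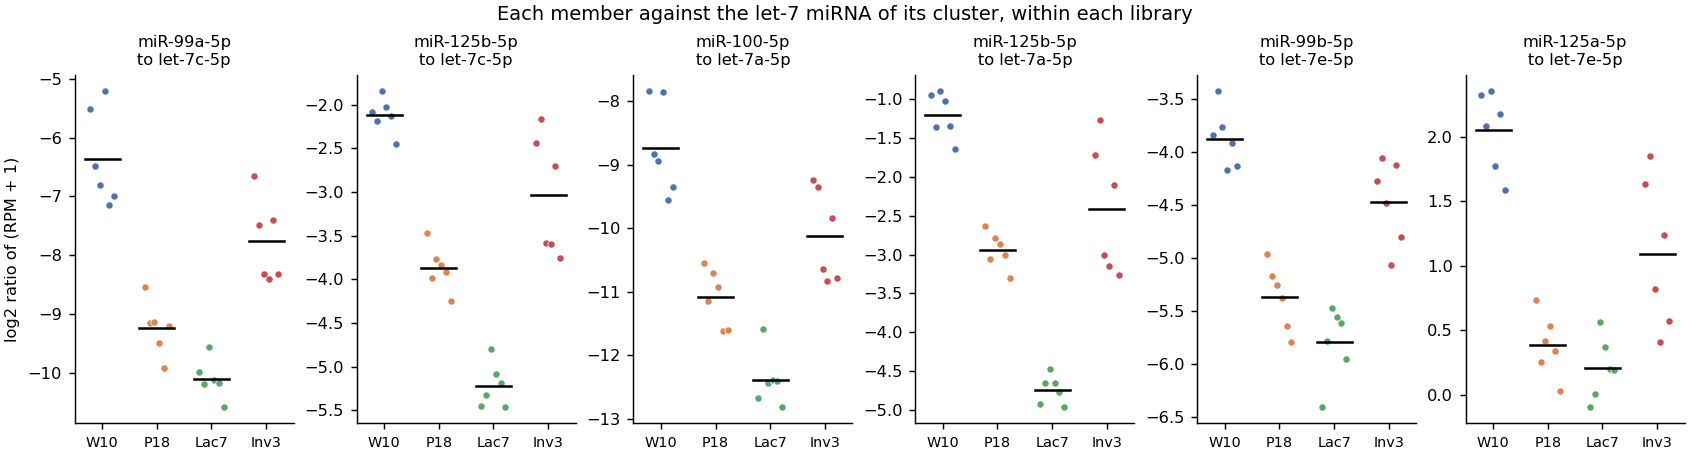
Log2 ratio of each member to the let-7 miRNA of its cluster in each of the 24 libraries by stage, with bars at the means of 6 mice. In all 6 ratios every W10 mouse lay above every P18 mouse, and the mean rose from Lac7 to Inv3 by 0.88 to 2.34.

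Members of a cluster were also set against each other. The log2 ratio of miR-99b-5p to miR-125a-5p had stage means between -6.00 and -5.56, and 1 of its 6 comparisons had an adjusted p under 0.05, Inv3 being 0.44 above Lac7 (exact permutation p = 0.0195, adjusted p = 0.0281). As miR-125b-5p is made on chromosomes 9 and 16, the next 2 ratios use the same summed value and do not separate its clusters. The ratio of miR-100-5p (chromosome 9) to miR-125b-5p had means between -8.15 and -7.53. It had 2 of 6 comparisons past the adjusted test (Lac7 and Inv3 against P18, adjusted p = 0.0138 and 0.0173 over exact permutation tests). The ratio of miR-99a-5p (chromosome 16) to miR-125b-5p had means between -5.37 and -4.24, with 3 of 6 past it. This ratio fell by 1.13 from W10 to P18 (exact permutation p = 0.00649, adjusted p = 0.0138). The ratio of miR-100-5p to miR-99a-5p, of different clusters, had means between -3.29 and -2.76, likewise with 3 of 6. Over 12 ratios in 6 comparisons, 53 of 72 had an adjusted p under 0.05.

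miR-351-5p, the remaining miRNA with the miR-125 seed, is encoded on chromosome X and was rare, at 63.9 RPM ± 10.6 at W10 and 57.6 RPM ± 15.3 at P18 (SD, n = 6). It had 16.3 RPM ± 3.03 in lactation and 58.9 RPM ± 12.01 in involution. It shared with miR-125b-5p the low level in lactation (log2 change -1.73, SE 0.20, limma adjusted p = 6.57e-08 from P18, and 1.78, adjusted p = 4.27e-08, from Lac7 to Inv3), and in both steps the mice did not overlap. It made up at most 0.519% of the reads with this seed in any mouse. miR-10a-5p and miR-10b-5p, relatives of miR-99 and miR-100 with the seed ACCCUGU, measured 8177 RPM ± 1787 and 746 RPM ± 158 at W10 and 4238 RPM ± 491 and 499 RPM ± 57.0 at Lac7.

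Mice of a stage differed in the members together, though not all of them. After the stage means were subtracted, miR-125a-5p and miR-125b-5p had a Pearson correlation of 0.94 over 24 mice (Spearman 0.94, permutation p = 1e-05, the smallest that 100000 permutations can give, adjusted p = 0.0001). Within the stages it was 0.89 to 0.99, and 0.90 without the 2 mice farthest from the median. miR-99a-5p and miR-100-5p had 0.83 (Spearman 0.82, permutation p = 6e-05, adjusted p = 0.0002), 0.98 at W10, 0.78 at P18 and 0.96 at Inv3 but -0.36 at Lac7, and 0.81 without the 2 farthest mice. miR-99a-5p and miR-99b-5p had 0.18 (Spearman 0.25, permutation p = 0.427, adjusted p = 0.427). Of the 10 pairs, 7 had an adjusted p under 0.05.

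**Figure D5:**
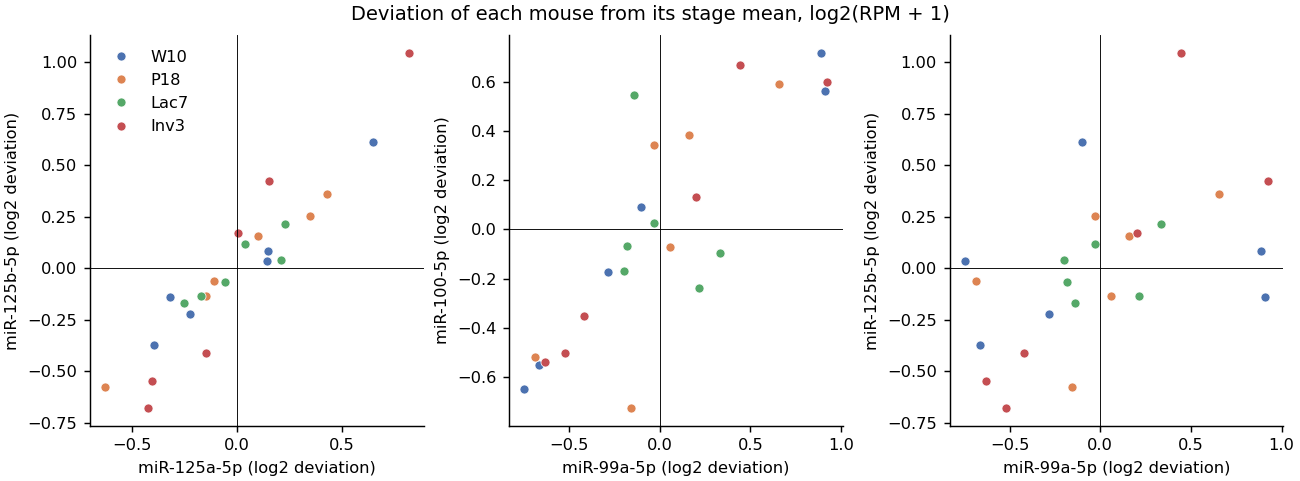
Deviation of each mouse from the mean of its stage in log2(RPM + 1), for miR-125b-5p against miR-125a-5p, miR-100-5p against miR-99a-5p, and miR-125b-5p against miR-99a-5p, with points coloured by stage. The first pair lies close to a line (r = 0.94 over 24 mice), the others are more scattered (0.83 and 0.52).

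Markers of cell types moved with the stages as well, and their part in these results was not tested. The summed level of 5 epithelial miRNAs of the miR-200 family (all 5 above 0 at each stage) lay between 14825 and 20697 RPM in the W10 mice, 48824 and 63534 RPM in the P18 mice, 113670 and 133068 RPM in the Lac7 mice, and 23151 and 78252 RPM in the Inv3 mice. The 5 stromal markers, miR-143-3p and miR-199a-3p among them, ranged from 169005 to 211305, 191012 to 214796, 147025 to 171127 and 256725 to 349601 RPM in the same order, and 4 leukocyte markers from 25358 to 48682, 7029 to 23454, 3963 to 12084 and 13031 to 23842 RPM. The stromal sum was carried by miR-143-3p (92349, 145529, 138521 and 246220 RPM on average), while miR-199a-3p had 82291, 50990, 19785 and 48927 RPM. Of the 5 stromal markers 1 was called lower from W10 to P18 and 3, miR-199a-3p, miR-199a-5p and miR-214-3p, were called lower from P18 to Lac7 and higher from Lac7 to Inv3, the steps at which members were also called in those directions. Of the 4 leukocyte markers 3, 3 and 4 were called in the same directions at these steps, where 20%, 22.6% and 16.5% of all miRNAs were. The 5 epithelial markers went the other way, 5 and then 4 being called higher and then 5 lower. Of all 544 miRNAs tested, 41, 41 and 56 were called in those opposite directions. The 4 skeletal muscle markers ranged from 2378 to 24031 RPM at W10 and stayed under 5001 RPM elsewhere. Without the 2 W10 mice highest in them (mice 4 and 5, chosen after the data were seen), 5, 5 and 3 members were called lower for P18, Lac7 and Inv3 against W10, as with all mice, where 18.8%, 38.4% and 17.6% of all miRNAs were. The 2 endothelial markers ranged from 12532 to 19549 RPM over the 24 mice and the 3 red blood cell markers from 371 to 1953 RPM. These 3 did not move together between stages. At Lac7 against W10 the log2 change was 1.95 for miR-144-3p, -0.58 for miR-451a and -1.83 for miR-486a-5p.

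At Inv3 the epithelial sum differed most between mice, with 26574, 23151, 73460, 59866, 30330 and 78252 RPM in mice 1 to 6. miR-125b-5p measured 14035, 21609, 7878, 7172, 11815 and 6558 RPM in the same mice, and miR-99a-5p 752, 538, 295, 255, 455 and 276 RPM. The mice low in the epithelial sum were high in both members. All 6 mice had the same label, and no test was made among these mice alone. As the epithelial sums fall into separate clusters at Inv3, their pooled correlations are counted below but their values are not given. Within the other stages that of the epithelial sum with miR-125b-5p was 0.22 at W10, -0.51 at P18 and -0.05 at Lac7 (Pearson, 6 mice each).

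Among the 30 relations of members with marker lists after the stage means were subtracted, 9 had an adjusted p under 0.05 by RPM and 2 with size factors, both with the red blood cell markers. Of the 9, 2 were with the epithelial sum, for miR-125a-5p and miR-125b-5p, and include the Inv3 mice just described. Those with the endothelial markers were for miR-99a-5p, miR-100-5p, miR-125a-5p and miR-125b-5p (Pearson -0.76 to -0.58, permutation adjusted p = 0.003 to 0.0256). Without Inv3 mice 1 and 2, the farthest from the median, these ran from -0.61 to -0.42. By Spearman the permutation adjusted p was 0.0051 and 0.0181 for miR-99a-5p and miR-100-5p. It was 0.119 and 0.0694 for miR-125a-5p and miR-125b-5p. For these last 2 the endothelial relation was -0.16 and -0.18 within W10 and 0.49 and 0.35 within Lac7 (Pearson). The rest were with the red blood cell markers, for miR-99b-5p (-0.57, permutation adjusted p = 0.0484), miR-125a-5p and miR-125b-5p. For miR-99b-5p the Spearman correlation was -0.44 (permutation adjusted p = 0.173). Its Pearson correlation was -0.38 without the 2 mice farthest from the median and 0.23 within Lac7. The relation of miR-125a-5p with the red blood cell markers had a Pearson correlation of -0.75 over 24 mice (Spearman -0.63, permutation p = 0.00025 and 0.0044, adjusted p = 0.003 and 0.044) and -0.70 without the 2 mice farthest from the median. It was -0.80, -0.88 and -0.76 within W10, P18 and Inv3 and 0.05 within Lac7. For miR-125b-5p it was -0.64 (Spearman -0.59, permutation p = 0.00108 and 0.00747, adjusted p = 0.00714 and 0.056), -0.63 without the 2 farthest mice and 0.22 within Lac7. The relation with the red blood cell markers thus did not hold within Lac7 for any of these members.

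The miRNAs whose levels ran most like those of each member over the 24 libraries were sought among the 182 whose mean reached 100 RPM in some stage, leaving out the members and their other arms. These Pearson correlations of log2(RPM + 1) are descriptions over libraries that share stages and scaling. miR-125b-5p was most like miR-342-3p (0.97, and 0.85 with stage means subtracted), then miR-199a-3p (0.96), miR-214-3p, miR-224-5p and miR-195a-5p (0.93 each). miR-199a and miR-214-3p are among the stromal markers above. miR-342-3p measured 2917, 1667, 481 and 1995 RPM on average at W10, P18, Lac7 and Inv3. miR-99a-5p was most like miR-214-3p, miR-199a-3p, miR-23a-3p, miR-199a-5p and miR-338-3p (0.88 to 0.89), and miR-100-5p like miR-199a-3p, miR-342-3p, miR-214-3p, miR-23a-3p and miR-196a-5p (0.88 to 0.90). The chromosome 17 members had other neighbours in this order, miR-125a-5p with miR-30d-5p first (0.86) and miR-99b-5p with miR-140-3p first (0.86), and both lists held miR-30d-5p, miR-184-3p and let-7d-3p. The let-7 miRNAs of the clusters had negative correlations with every member (-0.85 to -0.19) and ranked 117 to 168 of the 182. With stage means subtracted these ran from -0.59 (miR-99a-5p with let-7a-5p) to 0.51 (miR-125a-5p with let-7c-5p), so the sign did not hold within stages for every pair.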

How the data were processed

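The authors extracted small RNA with a mirVana kit, prepared QIAseq libraries and assigned the reads with QuickMIRSeq and miRBase 22. The submitters' processing notes also name Trimmomatic 0.36, cutadapt, FastQC, MultiQC and GRCm38. The authors deposited RPM, reads per 1000000 reads on listed miRNAs, for 1009 miRNAs in 24 libraries of 660346 to 1165321 reads. All values were whole multiples of what 1 read is worth (tolerance 0.011 RPM), which gave back the reads. The use of molecular identifiers is not given in the sources used here, so intervals cover counting error only, and 3 reads were taken as the limit that a count of 0 allows.

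miRNAs were kept where the mean reached 1 RPM in some stage, which left 544. They were fitted with limma 3.58.1 in R 4.3.3 on log2(RPM + 1), with Benjamini-Hochberg adjustment. Ratios were tested by two-sided exact permutation over all splits of the mice, adjusted over 72 comparisons. Correlations used 100000 permutations of mice within stages. edgeR 4.0.16 and DESeq2 1.42.0 were run on the recovered reads as alternatives, beside other pseudocounts, filters and scalings, a replicate block, each mouse left out and, chosen after the data were seen, the 2 W10 mice highest in muscle markers left out. The code was tested on simulated data, in which 200 of 544 miRNAs were changed for P18 against W10. There limma called 159 changed and 17 unchanged miRNAs, edgeR 174 and 4, and DESeq2 158 and 2. The members, lists and tests were chosen with earlier results of these data known. The miRNAs named are the members, their other arms, the let-7 partners, seed mates, miR-10, the markers and the 5 miRNAs most like each member. No 2 libraries of a stage agreed within sampling noise (60 pairs). The labels give no batch.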

Additional observations from a re-analysis of the deposited data

Results flagged for a closer look

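Of 20 groups of 6 mice, 1 for each member and stage, 2 held a mouse that stood apart from the other 5 by Dixon's test at the 95% level, where chance gives about 1 in 20. At Lac7, mouse 2 had 21.4 RPM of miR-100-5p, with the next mouse at 14.6 RPM. At Inv3, mouse 2 had 13952 RPM of miR-125a-5p, with the next mouse at 8790 RPM. That mouse was also the highest at Inv3 in miR-125b-5p (21609 RPM), miR-100-5p (79.2 RPM) and miR-99b-5p (230 RPM), and the lowest in the epithelial markers (23151 RPM). Their part in these values was not tested.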

How the results depend on the processing

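Of 660 alternative values for the fold changes of the members, 611 kept their direction and side of the threshold, 30 lost and 6 gained a call, and 13 changed sign. Calls of the 5 members for P18 against W10 numbered 3 with size factors, 2 by edgeR and 3 by DESeq2, and 3 to 5 with a mouse left out (W10 mouse 3 gave the lowest). For Lac7 against W10 they numbered 3 under each of these tools, for Inv3 against W10 1 under each (2 to 3 with a mouse left out), and for Lac7 against P18 1 with size factors. Of all 544 miRNAs tested, 76, 71 and 66 were called lower for P18 against W10 with size factors, edgeR and DESeq2. For Lac7 against W10 158, 161 and 128 were, for Inv3 against W10 63, 60 and 50, and for Lac7 against P18 91 with size factors. Without the fold limit, 5 members were called higher for Inv3 against Lac7 and 2 for Inv3 against P18, where 152 and 59 of the 544 were. Relations with marker lists went from 9 to 2 with size factors.

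Signs also changed. miR-99b-5p took 0.063 (size factors) and 0.023 (DESeq2) for Lac7 against P18, and 0.047 (size factors), 0.078 (edgeR) and 0.056 (DESeq2) for Inv3 against W10. With a mouse left out, miR-125a-5p for Lac7 against P18 ran from -0.11 to 0.10 and miR-125b-5p for Inv3 against P18 from -0.16 to 0.18. The log2 ratio of miR-100-5p to miR-125b-5p became 0.00887 (pseudocount 0.1 RPM) and 0.078 (medians) for Inv3 against Lac7 (-0.11 to 0.091 with a mouse left out) and 0.44 (pseudocount 10 RPM) for Lac7 against W10 (-0.26 to 0.023). That of miR-99b-5p to miR-125a-5p became 0.012 (pseudocount 10 RPM) and 0.036 (medians) for Lac7 against W10 (-0.12 to 0.0096). That of miR-99b-5p to miR-99a-5p ran from -0.051 to 0.28 with a mouse left out for Inv3 against P18. That of miR-100-5p to miR-99a-5p became -0.030 (pseudocount 0.1 RPM) for Lac7 against P18 (-0.12 to 0.10). Correlations became -0.029 for miR-99a-5p with red blood cell markers without the 2 farthest mice, 0.21 for miR-99b-5p with stroma and 0.020 for miR-125b-5p with leukocytes (size factors), and 0.0044 for miR-100-5p with muscle (pseudocount 10 RPM). The cause was not tested.

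Over all miRNAs, the calls for P18 against W10, Lac7 against P18, Inv3 against Lac7, Lac7 against W10, Inv3 against W10 and Inv3 against P18 numbered 150, 164, 146, 273, 136 and 77. They numbered 88, 82, 79, 152, 69 and 34 with a pseudocount of 10 RPM, 69, 67, 66, 99, 59 and 32 with a filter at 100 RPM, which leaves fewer to test, and 226, 246, 255, 363, 213 and 155 without the fold limit. Mouse numbers did not pair the samples (mean correlation of same-numbered mice -0.045, 13 of 33 over 0.1), and a replicate block left the members called at 5, 3, 3, 5, 3 and 0 in the 6 comparisons. Depth limits miR-100-5p at Lac7 and the rarer 3p arms most.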
